A study of Mus musculus with 9 samples.

Results

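Lysine acetylation is set by enzymes that add the acetyl group (writers), removed by deacetylases (erasers) and recognised by proteins with bromodomains (readers). The genes described here are 36 mouse genes listed by symbol for these 3 roles, and 27 of them had a probe set with a single gene symbol among the 12393 genes tested. They comprised 10 of 13 listed writers, 13 of 18 erasers and 4 of 5 readers. Kat5, Kat8, Taf1, Hdac4, Hdac8, Hdac10, Sirt5, Sirt6 and Brd9 are not analysed here, and neither is the gene of p300.

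CBP and p300 are closely related acetyltransferases that serve as coactivators of many transcription factors and acetylate histones as well as other proteins. The other writers belong to the GNAT family (Kat2a, Kat2b and Hat1), the MYST family (Kat6a, Kat6b and Kat7) and the p160 nuclear receptor coactivators (Ncoa1, Ncoa2 and Ncoa3). Erasers are the zinc-dependent histone deacetylases and the NAD-dependent sirtuins. Regulatory T (Treg) cells restrain immune responses, and their defining transcription factor Foxp3 is itself acetylated and deacetylated by enzymes of these families.

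RNA was measured in CD4+CD25+ cells separated with magnets from mice of the C57Bl/6 strain. The CBP-deleted group had the genotype fl-CBP/Foxp3cre and the p300-deleted group fl-p300/Foxp3cre, in which Cre is driven from Foxp3, so that the floxed gene is cut in cells that have expressed Foxp3. Cells of the CD4+CD25+ fraction that never expressed Foxp3 keep the floxed gene. The control group is labelled Foxp3cre control in its genotype and WT in its titles. If it lacks the Foxp3cre allele, then deletion and allele cannot be told apart in the comparisons with it. Each group had 3 arrays, described as independent samples with no statement of which or how many animals each came from, so the p-values measure the spread between these samples. Both comparisons with control use the same 3 control arrays.

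All 10 measured genes of the CD4 T and Treg list were above the background level in at least 1 group. By group mean, Foxp3 was above it only in the controls and Ikzf2 only in the knockouts. Ikzf2 read 4.28, 4.26 and 5.74 in the controls, and control replicate 3 lay above every knockout array. The list also holds general T cell genes, so the count of 10 does not show Treg markers in every group. The background level, log2 4.90, is the 90th percentile of the means of 32 genes of other tissues. The Foxp3 probe set itself read 9.48 to 9.75 (log2) in the control arrays and 2.58 to 3.19 in the 6 knockout arrays, below the background level in both deletions. If the controls lack the Foxp3cre allele, deletion and allele cannot be told apart in this reading. The ribosomal 18S control probe sets had a mean log2 of 7.75 ± 0.315 (SD, n = 3) in the CBP-deleted and 8.52 ± 0.957 in the p300-deleted arrays. Control replicate 3, at 8.88, lay within the range of the knockout arrays (7.39 to 9.62), and control replicates 1 and 2 were lower, at 5.82 and 6.20. The difference between the 3' and 5' Gapdh control probe sets, a sign of RNA quality, was 0.20 to 0.60 in the controls, -0.15 to 0.11 in the CBP-deleted and 0.06 to 0.17 in the p300-deleted arrays, so that the controls did not overlap either knockout. The neutrophil and monocyte list (12 of 12 measured) had a mean log2 of 4.33 to 5.07 in controls, 5.22 to 6.89 in CBP-deleted and 5.35 to 7.09 in p300-deleted arrays. Against control, 4 of 5 plasma cell and 4 of 6 mast cell and basophil genes were higher in the p300-deleted arrays, where 2.02% of all genes were. In the CBP-deleted arrays 3 of 7 B cell genes and 1 of 3 erythroid genes (Alas2) were lower, where 2.79% of all genes were. Of 8 CD8 T and NK genes, 1 was higher in each knockout, Cd8b1 in CBP-deleted and Ncr1 in p300-deleted arrays. The part of these measures in the differences below was not tested unless a value is given beside the result.

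The first question was whether the transcripts of related enzymes differ when CBP or p300 is deleted. No writer, eraser or reader passed the test in either knockout against control. In the CBP-deleted group 0 of 27 members passed, where 4.93% of all genes did (2.14% higher and 2.79% lower). In the p300-deleted group 0 of 27 passed, where 4.06% of all genes did (2.02% higher and 2.04% lower). Tests were limma fits over all genes, called at a Benjamini-Hochberg adjusted p under 0.05. The median log2 difference of the members was -0.04 in CBP-deleted cells and 0.02 in p300-deleted cells, beside -0.03 and -0.02 for all genes. The median size of a member's log2 difference was 0.14 and 0.11, beside 0.13 and 0.12 for all genes.

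The intervals bound how large an unseen change in the reading of the probe set used could be. For Ncoa2 and Hdac9, at or below background in all groups, they do not bound a change of the transcript. The counts that follow include both genes and Crebbp, the gene deleted in the CBP-deleted group. The 95% interval of the difference from control stayed within 1.5-fold in either direction for 24 of 27 members in CBP-deleted cells and for 25 of 27 in p300-deleted cells. It stayed within 2-fold for 26 and 27 members, the exception being the reader Brd2 in CBP-deleted cells. At an unadjusted p under 0.05, 7 members (25.9%) differed from control in CBP-deleted cells, where 20.4% of all genes did, and 3 (11.1%) in p300-deleted cells, where 18.6% did. The arrays of 7 members (25.9%) did not overlap between CBP-deleted and control, near the 24.4% of all genes. Those of 2 members (7.41%) did not overlap between p300-deleted and control, below the 20.3% of all genes.

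**Figure D1:**
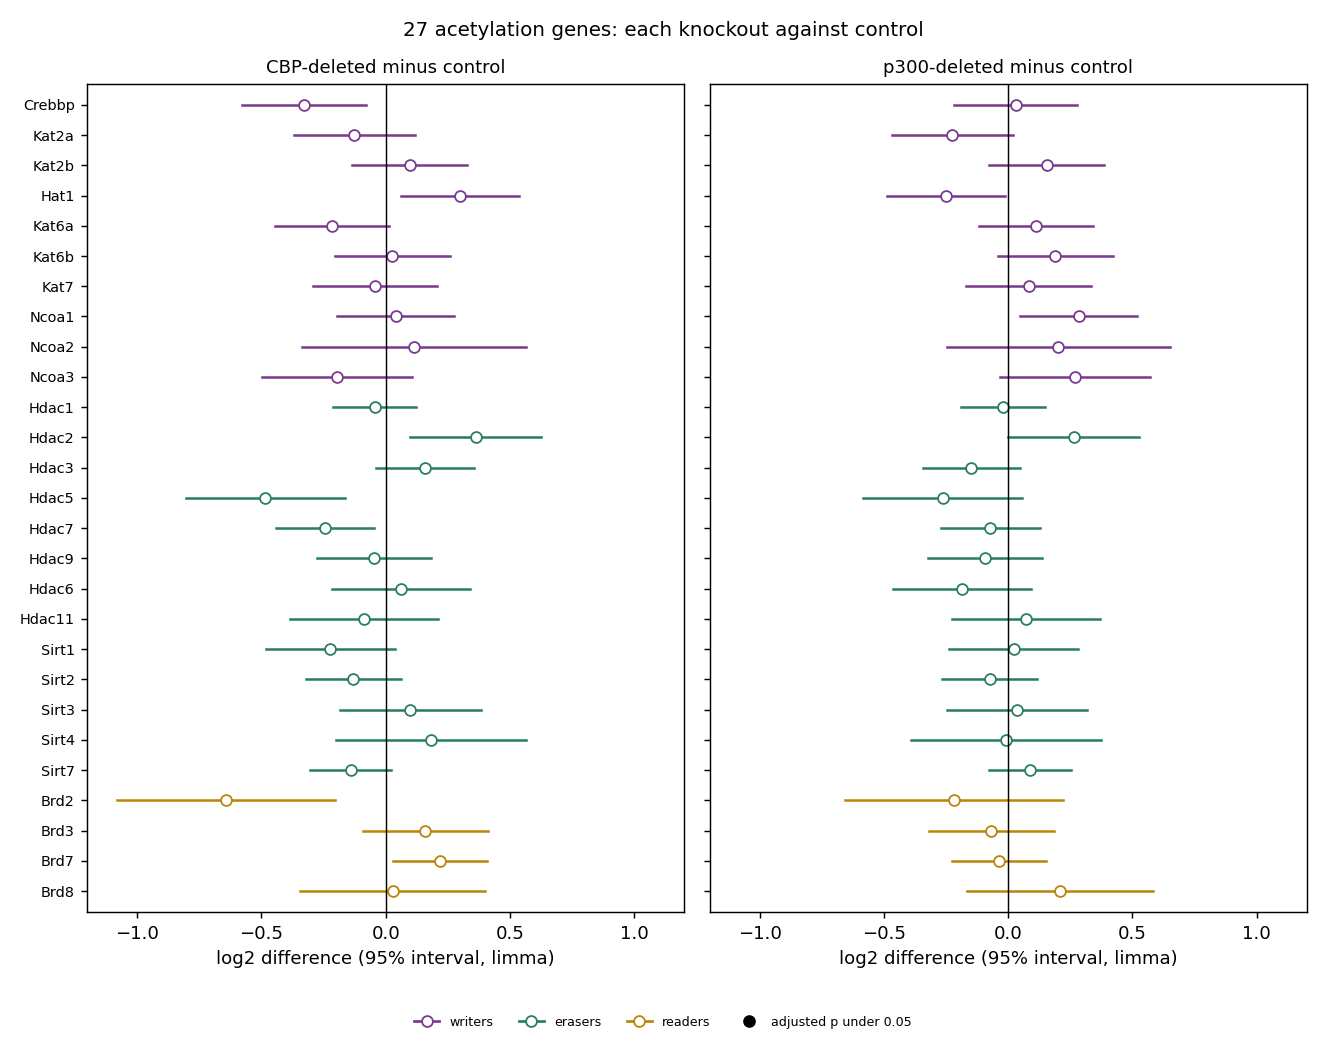
Log2 difference from control of each of the 27 measured members in CBP-deleted (left) and p300-deleted (right) cells, with the 95% interval of the limma fit over 3 arrays a group. Colours mark writers, erasers and readers, and every circle is open because no adjusted p was under 0.05. Brd2 lies lowest on the left, at -0.64, and no member on the right lies beyond 0.28 in size.

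Among the writers, the deleted gene comes first. Crebbp, which encodes CBP, read 7.35, 7.11 and 7.13 (log2) in the CBP-deleted arrays, 7.67, 7.48 and 7.53 in the p300-deleted arrays and 7.56, 7.67 and 7.36 in the controls. All 3 CBP-deleted arrays lay below every other array, the nearest control by 0.0042. The mean was 7.20 ± 0.133 (SD, n = 3) against 7.53 ± 0.158 in controls, a log2 difference of -0.33 (SE 0.11, 95% interval -0.58 to -0.08) that did not pass (adjusted p = 0.123). Without control replicate 3 the difference was -0.42 and passed (adjusted p = 0.0399), while calls over all genes rose from 611 to 1131. It passed in 1 of 19 alternatives, over which the difference ran from -0.42 to -0.26 (adjusted p 0.0399 to 0.338). Against the p300-deleted arrays the log2 difference was -0.36 (adjusted p = 0.101), and between p300-deleted and control it was 0.03 (adjusted p = 0.93). Crebbp has 1 probe set on this array, and its position relative to the floxed exons is not given in the sources used here, so this reading does not check the deletion. In bulk RNA, fewer cells with a transcript and less transcript per cell cannot be told apart.

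The promoters of 3 genes are shown because these genes differed most clearly between groups: Hat1, the member that passed, and Sap30 and Nampt, from the list of partner genes described further on. Each run is the 250 bases before the RefSeq start on the GRCm38.p6 build, at chr2:71389010-71389259 (plus strand) for Hat1, chr8:57487861-57488110 (minus strand) for Sap30 and chr12:32820085-32820334 (plus strand) for Nampt. Capitals mark matches, on either strand, to the GC box GGGCGG, the CCAAT box and TGACG, the short form of the cyclic AMP response element, the element bound by the CBP partner CREB.
Hat1: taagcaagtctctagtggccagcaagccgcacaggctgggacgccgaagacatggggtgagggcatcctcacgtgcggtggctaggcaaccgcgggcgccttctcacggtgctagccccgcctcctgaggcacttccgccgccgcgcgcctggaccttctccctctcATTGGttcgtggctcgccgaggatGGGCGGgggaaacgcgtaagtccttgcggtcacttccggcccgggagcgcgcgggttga
Sap30: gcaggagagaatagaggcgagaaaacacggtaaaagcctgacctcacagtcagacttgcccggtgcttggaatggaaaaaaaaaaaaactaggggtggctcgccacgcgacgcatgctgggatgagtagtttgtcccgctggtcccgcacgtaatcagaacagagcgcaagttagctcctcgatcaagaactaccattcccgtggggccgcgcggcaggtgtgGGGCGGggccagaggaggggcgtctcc
Nampt: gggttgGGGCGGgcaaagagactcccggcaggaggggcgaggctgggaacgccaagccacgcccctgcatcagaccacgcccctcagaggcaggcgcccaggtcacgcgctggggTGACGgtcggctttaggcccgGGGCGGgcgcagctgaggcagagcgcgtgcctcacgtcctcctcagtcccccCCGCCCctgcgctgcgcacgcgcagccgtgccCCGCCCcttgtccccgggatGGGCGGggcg
The full element TGACGTCA was in none of the 3, and the E2F letters TTTGGCGC, TTTCCCGC and TTTCGCGC were in none either.

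Hat1 acetylates newly made histone H4 before it is deposited on replicated DNA. Its log2 values were 8.65, 8.64 and 8.78 in CBP-deleted, 8.19, 8.24 and 7.98 in p300-deleted and 8.22, 8.54 and 8.41 in control arrays. The CBP-deleted arrays were the 3 highest, the p300-deleted arrays were low, and only the lowest control fell within the p300-deleted range. Hat1 was 1.46-fold higher in CBP-deleted than in p300-deleted cells, a log2 difference of 0.55 (SE 0.11, 95% interval 0.31 to 0.79, adjusted p = 0.0127). Against control the log2 difference was 0.30 in CBP-deleted (adjusted p = 0.138) and -0.25 in p300-deleted cells (adjusted p = 0.237), and neither passed. The call between the knockouts was lost when CBP-deleted replicate 2 (adjusted p = 0.0543), CBP-deleted replicate 3 (0.0657) or p300-deleted replicate 3 (0.0529) was left out.

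Cell cycle genes differed in the same comparison. Of the 25 listed, 24 were measured, and 22 of 24 were higher in CBP-deleted than in p300-deleted cells, with a median log2 difference of 1.12. Their mean log2 level was 8.37 to 8.62 in CBP-deleted, 7.30 to 7.71 in p300-deleted and 7.90 to 8.69 in control arrays. The log2 of their summed level was 13.86 to 14.05, 13.16 to 13.37 and 13.44 to 14.09, and Tyms was at or below background. Against control, 0 of 24 passed in CBP-deleted cells and 15 of 24 were lower in p300-deleted cells. The part of the cell cycle list in the Hat1 difference was not tested.

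The other GNAT writers are Kat2a and Kat2b, the catalytic subunits of the SAGA and ATAC coactivator complexes. Kat2a ranged from 8.11 to 8.28 in CBP-deleted, 7.96 to 8.20 in p300-deleted and 8.13 to 8.48 in control arrays. Its log2 difference from control was -0.13 (95% interval -0.37 to 0.12) and -0.22 (-0.47 to 0.02), with adjusted p = 0.572 and 0.311. Kat2b differed from control by 0.10 (95% interval -0.13 to 0.33) and 0.15 (-0.08 to 0.39), with adjusted p = 0.656 and 0.495. The arrays of both genes overlapped between every pair of groups.

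In the MYST family, Kat6a and Kat6b are the catalytic subunits of MOZ and MORF complexes, which acetylate histone H3, and Kat7 (HBO1) works with ING and BRPF or JADE proteins. Kat6a had the largest difference from control of the 3. It read 8.90, 8.78 and 8.53 in CBP-deleted, 9.11, 9.05 and 9.04 in p300-deleted and 9.07, 8.95 and 8.84 in control arrays. The CBP-deleted arrays lay below every p300-deleted array but overlapped the controls. The log2 difference was -0.22 (SE 0.10, adjusted p = 0.271) from control and -0.33 (adjusted p = 0.102) from p300-deleted cells. Without CBP-deleted replicate 3 the difference from control was -0.11 (adjusted p = 0.668), smaller than that of Kat6b in p300-deleted cells. Kat6b was the only MYST gene whose arrays stood apart from control, at 7.47 to 7.64 in p300-deleted against 7.30 to 7.41 in control arrays, a log2 difference of 0.19 (adjusted p = 0.379). Kat7 differed from control by -0.04 in CBP-deleted cells and 0.08 in p300-deleted cells (adjusted p = 0.879 and 0.773). The intervals of all 3 lay between -0.44 and 0.42 against control.

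The p160 coactivators bind nuclear receptors and bring CBP and p300 to their target genes. Ncoa1 read 7.95, 8.04 and 7.72 in CBP-deleted, 8.14, 8.05 and 8.25 in p300-deleted and 7.82, 7.99 and 7.78 in control arrays. The p300-deleted arrays lay above all others. Against control the p300-deleted log2 difference was 0.28 (SE 0.11, 95% interval 0.05 to 0.52, adjusted p = 0.178), the smallest adjusted p of any member in that comparison. A second Ncoa1 probe set gave 0.06 (adjusted p = 0.868), and the mean of both gave 0.17 (adjusted p = 0.449). Ncoa3 was 7.11 to 7.44 in CBP-deleted and 7.60 to 7.89 in p300-deleted arrays, with controls from 7.24 to 7.71 across both. Its log2 difference between the knockouts was -0.46 (95% interval -0.77 to -0.16, adjusted p = 0.0796). Ncoa2 lay at or below the background level in all groups, from 3.35 to 4.22, and its readings carry no order. Of the 9 writers other than Crebbp, the interval of the difference from control stayed within 1.5-fold for 9 in CBP-deleted cells and 8 in p300-deleted cells, Ncoa2 being the exception with an upper bound of 1.57-fold.

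**Figure D2:**
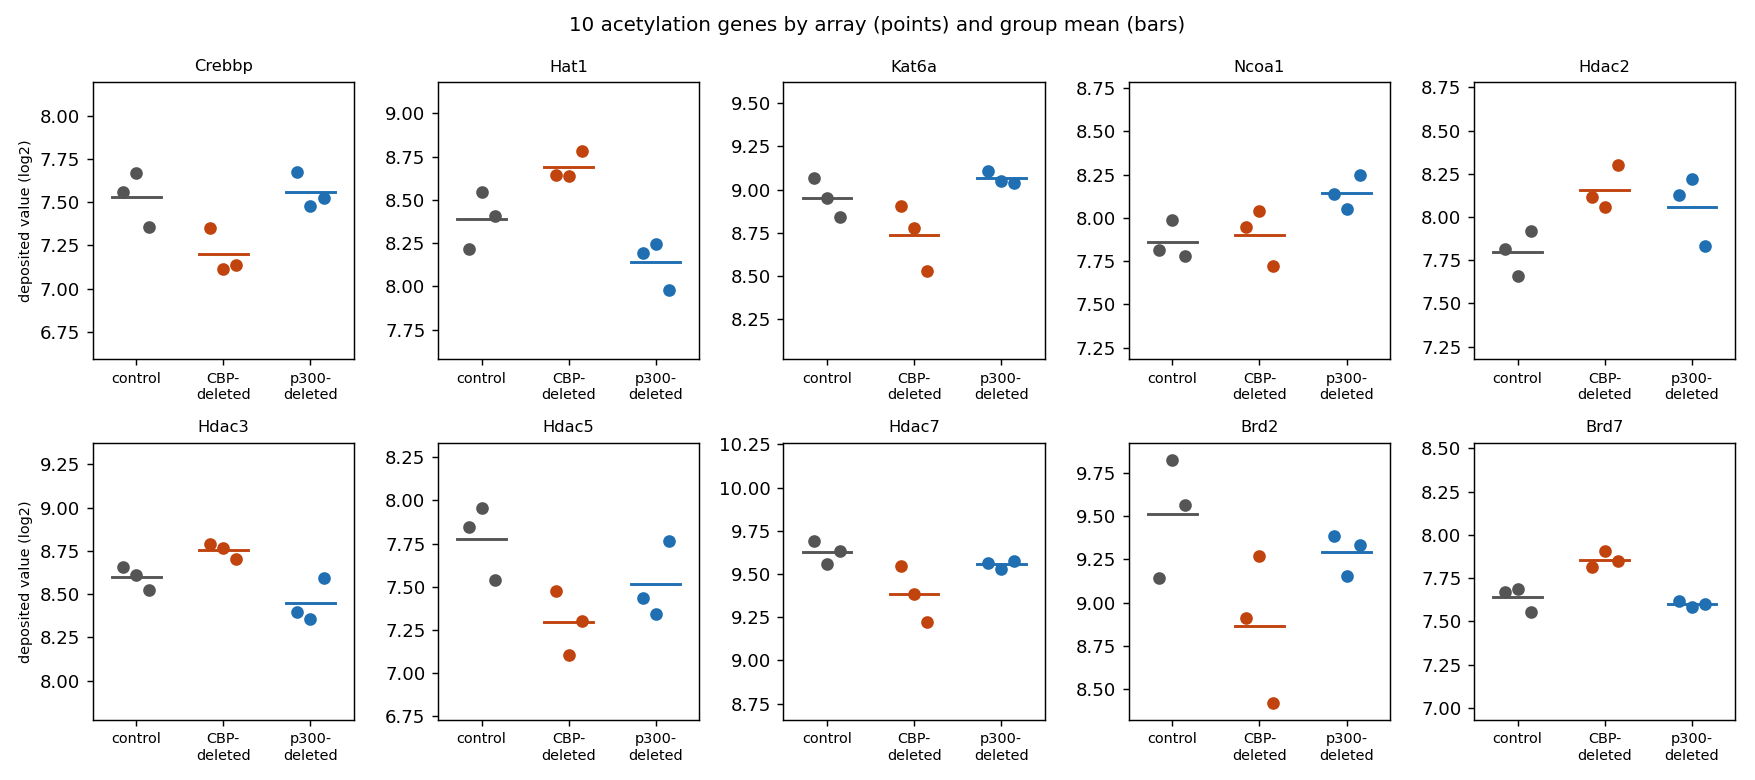
Deposited log2 value of 10 members on each array (points, 3 a group) with the group mean (bars), each panel on its own axis. In Hat1 the 3 CBP-deleted arrays (8.64 to 8.78) lie above all p300-deleted arrays (7.98 to 8.24). In Crebbp, Hdac5 and Hdac7 the CBP-deleted arrays lie below all controls, and in Brd2 the groups overlap.

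Among the erasers, the class I deacetylases Hdac1, Hdac2 and Hdac3 are the catalytic subunits of the SIN3, NuRD, CoREST and NCoR repressor complexes. Hdac2 read 8.11, 8.06 and 8.30 in CBP-deleted, 8.13, 8.22 and 7.83 in p300-deleted and 7.81, 7.66 and 7.92 in control arrays. All CBP-deleted arrays and all but 1 p300-deleted array were above the controls. The log2 difference from control was 0.36 (SE 0.12, 95% interval 0.10 to 0.63, adjusted p = 0.111) in CBP-deleted and 0.26 (adjusted p = 0.268) in p300-deleted cells. Hdac1, which shares those complexes with Hdac2, differed by -0.04 (95% interval -0.21 to 0.12) and -0.02 (-0.19 to 0.15), with adjusted p = 0.792 and 0.93. Hdac3, the NCoR deacetylase, was 8.71 to 8.79 in CBP-deleted, 8.36 to 8.59 in p300-deleted and 8.52 to 8.66 in control arrays. The CBP-deleted arrays were again the highest, and between the knockouts the log2 difference was 0.31 (SE 0.09, adjusted p = 0.0755).

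Class IIa deacetylases shuttle between cytoplasm and nucleus and act as signal-dependent corepressors of MEF2. All 3 measured class IIa genes had lower means than control in both knockouts, and none passed. Hdac5 read 7.47, 7.11 and 7.30 in CBP-deleted, 7.44, 7.34 and 7.77 in p300-deleted and 7.84, 7.95 and 7.54 in control arrays. The CBP-deleted arrays lay below every control and p300-deleted replicate 3 lay among the controls. The log2 difference from control was -0.48 (SE 0.15, 95% interval -0.80 to -0.16, adjusted p = 0.0837) in CBP-deleted and -0.26 (95% interval -0.58 to 0.06, adjusted p = 0.381) in p300-deleted cells. Without control replicate 3 the CBP-deleted difference was -0.61 and passed (adjusted p = 0.0252). It passed in 1 of 19 alternatives, over which it ran from -0.61 to -0.38 (adjusted p 0.0252 to 0.253). Hdac7, a class IIa gene of lymphocytes, was 9.22 to 9.54 in CBP-deleted against 9.56 to 9.69 in control arrays, a log2 difference of -0.24 (SE 0.09, adjusted p = 0.15). In p300-deleted cells Hdac7 differed by -0.07 (adjusted p = 0.747). Hdac9 lay at or below background throughout, from 2.98 to 3.32.

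Hdac6, a cytoplasmic class IIb deacetylase of tubulin and HSP90, read 7.58, 7.69 and 7.65 in CBP-deleted, 7.31, 7.21 and 7.65 in p300-deleted and 7.72, 7.41 and 7.60 in control arrays. The groups overlapped, and the log2 difference from control was 0.06 (95% interval -0.22 to 0.34, adjusted p = 0.833) and -0.19 (-0.46 to 0.09, adjusted p = 0.49). Without p300-deleted replicate 2 the latter was -0.10 and without p300-deleted replicate 3 it was -0.32. Hdac11, the class IV member, read 4.80, 5.07 and 5.03 in CBP-deleted, 5.01, 5.16 and 5.21 in p300-deleted and 4.96, 5.29 and 4.91 in control arrays. The group means lay just above background and CBP-deleted replicate 1 below it. Its log2 difference was -0.09 (95% interval -0.38 to 0.21) and 0.07 (-0.22 to 0.37), with adjusted p = 0.77 and 0.841.

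The sirtuins, which use NAD to remove acetyl and other acyl groups, did not pass in any comparison. Sirt1, a nuclear deacetylase of histones and transcription factors, had their largest difference from control. It read 7.38, 7.64 and 7.47 in CBP-deleted, 7.72, 7.81 and 7.70 in p300-deleted and 7.52, 7.70 and 7.94 in control arrays. The CBP-deleted arrays overlapped the controls and lay below all p300-deleted arrays. The log2 difference from control was -0.22 (95% interval -0.48 to 0.04, adjusted p = 0.318) in CBP-deleted and 0.02 (-0.24 to 0.28, adjusted p = 0.951) in p300-deleted cells. Without control replicate 3 the CBP-deleted difference was -0.11 (adjusted p = 0.58). The cytoplasmic Sirt2 differed from control by -0.13 and -0.07, the mitochondrial Sirt3 and Sirt4 by 0.10 and 0.18 in CBP-deleted and by 0.04 and -0.01 in p300-deleted cells. The nucleolar Sirt7 differed by -0.14 and 0.09, and its 3 CBP-deleted arrays (10.14 to 10.26) lay below the p300-deleted arrays (10.38 to 10.46), a log2 difference of -0.23 (adjusted p = 0.111). All 5 sirtuins had intervals within 1.5-fold of control in both knockouts.

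The readers of the BET group, Brd2 and Brd3, bind acetylated histones through paired bromodomains. Brd2 had the largest difference of any member in the 3 comparisons. It read 8.91, 9.27 and 8.42 in CBP-deleted, 9.38, 9.16 and 9.34 in p300-deleted and 9.14, 9.82 and 9.57 in control arrays. CBP-deleted replicate 2 lay above the lowest control, so the groups overlapped. The log2 difference from control was -0.64 (SE 0.20, 95% interval -1.08 to -0.20, adjusted p = 0.0936) in CBP-deleted and -0.22 (adjusted p = 0.629) in p300-deleted cells. Without CBP-deleted replicate 3 the CBP-deleted difference was -0.42 (adjusted p = 0.306), and with the mean of both Brd2 probe sets it was -0.39 (adjusted p = 0.107). The second Brd2 probe set gave -0.14 (adjusted p = 0.569) in CBP-deleted and 0.18 (adjusted p = 0.468) in p300-deleted cells. Brd3 differed by 0.16 (adjusted p = 0.478) and -0.07 (adjusted p = 0.818), and its 3 probe sets did not share 1 sign in any comparison.

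Brd7, a subunit of the PBAF remodelling complex, read 7.81, 7.91 and 7.85 in CBP-deleted, 7.62, 7.58 and 7.60 in p300-deleted and 7.67, 7.69 and 7.55 in control arrays. The CBP-deleted arrays were the 3 highest. The log2 difference was 0.22 (SE 0.09, 95% interval 0.03 to 0.41, adjusted p = 0.176) from control and 0.26 (adjusted p = 0.122) from p300-deleted cells. Brd8, a subunit of the TIP60 complex, differed from control by 0.03 (95% interval -0.34 to 0.40) and 0.21 (-0.16 to 0.58), with adjusted p = 0.95 and 0.584.

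The second question was whether the knockouts differ from each other. Between CBP-deleted and p300-deleted cells 1 of 27 members passed, Hat1, where 5.2% of all genes did (3.2% higher in CBP-deleted and 2.01% lower). At an unadjusted p under 0.05, 8 members (29.6%) differed, where 18.3% of all genes did. The arrays of 10 members (37.0%) did not overlap, where 30.1% of all genes did. Of these, Hat1, Hdac3, Brd7 and Brd3 were higher in CBP-deleted arrays, and Ncoa3, Crebbp, Kat6a, Sirt7, Ncoa1 and Sirt1 were lower. The median log2 difference of the members was -0.09, beside -0.02 for all genes, and the median size was 0.19, beside 0.12. Among the 10 writers, 8 had a lower mean in CBP-deleted cells, the exceptions being Hat1 and Kat2a. Of all 12393 genes, 6704 had a lower mean. The 8 writers include Crebbp, the gene deleted in these cells, and Ncoa2, which was at or below background. The interval stayed within 1.5-fold for 23 of 27 members and within 2-fold for all 27.

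When only these 6 arrays were fitted, without the controls, Hat1, Brd7, Crebbp, Hdac3, Kat6a, Ncoa3 and Sirt7 passed, 7 in all, while the calls over all genes rose from 645 to 1386. The control arrays had a larger spread: the median SD of the members over 3 arrays was 0.116 in CBP-deleted, 0.120 in p300-deleted and 0.151 in control arrays, beside 0.102, 0.113 and 0.160 for all genes. CBP-deleted replicate 3 lay lowest over the members, with a median deviation of -0.11 from the control mean and 13 members below all controls. The other knockout arrays had medians between -0.01 and 0.03.

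**Figure D3:**
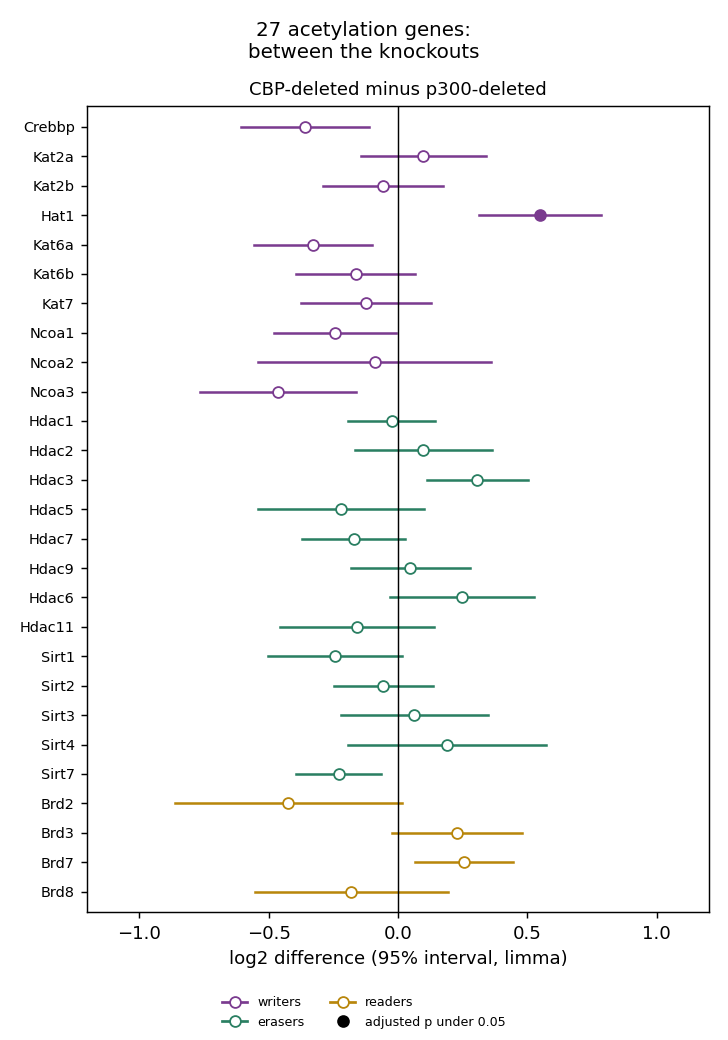
Log2 difference between CBP-deleted and p300-deleted cells of the 27 members with its 95% interval from the limma fit, coloured by role. Hat1, at 0.55, is the only filled circle (adjusted p under 0.05). To the left of 0 lie 8 of the 10 writers, Crebbp and Ncoa2 among them. Over all 12393 genes, 6704 differences were below 0.

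The enzymes act in complexes and depend on acetyl-CoA and NAD, so 137 partner genes were listed, of which 105 were measured. Of these, 6 had all group means at or below background. In CBP-deleted cells 3 of 105 passed against control (2 higher, 1 lower), 2.86% beside the 4.93% of all genes. In p300-deleted cells 2 of 105 passed, both lower, 1.90% beside 4.06%. Between the knockouts 3 of 105 passed (2 higher and 1 lower in CBP-deleted cells), 2.86% beside 5.2%. At an unadjusted p under 0.05 the counts were 20, 29 and 26 of 105 (19.0%, 27.6% and 24.8%), beside 20.4%, 18.6% and 18.3% of all genes. The median log2 difference of the partners was -0.02, 0.00 and -0.01 in the 3 comparisons.

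Nampt makes the NAD precursor nicotinamide mononucleotide in the salvage route on which sirtuins depend. It read 7.87, 7.78 and 7.77 in CBP-deleted, 7.16, 7.47 and 7.54 in p300-deleted and 7.03, 6.89 and 7.11 in control arrays. The 3 groups did not overlap, CBP-deleted being highest and control lowest. Nampt was 1.74-fold higher in CBP-deleted than in control cells, a log2 difference of 0.80 (SE 0.12, 95% interval 0.54 to 1.05, adjusted p = 0.0051), and passed under all 19 alternatives. With the mean of its 2 probe sets the difference was 0.51. The p300-deleted difference was 0.38 (SE 0.12, 95% interval 0.13 to 0.63, adjusted p = 0.0921), and that between the knockouts 0.41 (adjusted p = 0.0631). Neither of these passed. With the mean of the 2 probe sets the difference between the knockouts was 0.12 (adjusted p = 0.608). The neutrophil and monocyte list was also higher in the knockouts: its summed level was log2 9.43 to 12.20 in CBP-deleted and 8.15 to 9.41 in control arrays, with Ltf, Lcn2, Cd14 and Itgam at or below background and 0 of 12 genes past the threshold. The part of that list in the Nampt difference was not tested.

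The other 11 measured genes of acetyl-CoA and NAD supply did not pass in any comparison. Acly, which makes cytosolic acetyl-CoA from citrate, differed from control by 0.04 in CBP-deleted cells (adjusted p = 0.848). Nmnat1, which makes nuclear NAD, differed by 0.31 (adjusted p = 0.18), and Nadk, the NAD kinase, by -0.32 (adjusted p = 0.0996).

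Sap30, a subunit of the SIN3 corepressor that holds Hdac1 and Hdac2, read 7.35, 7.65 and 7.68 in CBP-deleted, 6.67, 6.89 and 6.99 in p300-deleted and 7.22, 7.43 and 7.37 in control arrays. The p300-deleted arrays were the 3 lowest, and CBP-deleted and control arrays overlapped. Sap30 was 1.64-fold higher in CBP-deleted than in p300-deleted cells (log2 difference 0.71, SE 0.12, 95% interval 0.44 to 0.98, adjusted p = 0.0071). This call was lost without CBP-deleted replicate 2 (adjusted p = 0.0505). The p300-deleted arrays were also lower than control by a log2 difference of -0.49 (SE 0.12, adjusted p = 0.0481), a call that passed in 3 of 19 alternatives and was lost whichever array was left out (adjusted p 0.0547 to 0.166). In CBP-deleted cells the difference from control was 0.22 (adjusted p = 0.353). The other 11 measured SIN3 genes did not pass in any comparison. As for Hat1, the cell cycle list moved with the difference between the knockouts, and its part was not tested.

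Msl3 is a subunit of the MSL complex, whose acetyltransferase is Kat8. It read 8.03, 8.18 and 8.21 in CBP-deleted, 7.73, 7.78 and 7.76 in p300-deleted and 7.73, 7.90 and 7.67 in control arrays. The CBP-deleted arrays lay above all others. It was 1.29-fold higher than in control (log2 difference 0.37, SE 0.10, adjusted p = 0.0478) and 1.31-fold higher than in p300-deleted cells (0.39, adjusted p = 0.0377). These calls passed in 4 and 9 of 19 alternatives. The call against control was lost whichever array was left out (adjusted p 0.0636 to 0.197) except control replicate 2. The call between the knockouts was lost when any knockout array was left out (adjusted p 0.0585 to 0.165).

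Kmt2a, a histone methyltransferase that also carries a bromodomain, read 8.97, 8.97 and 8.33 in CBP-deleted, 9.54, 9.40 and 9.26 in p300-deleted and 9.14, 9.40 and 9.30 in control arrays. All CBP-deleted arrays lay below the rest, replicate 3 furthest. The log2 difference between the knockouts was -0.65 (SE 0.16, 95% interval -0.99 to -0.31, adjusted p = 0.0336), and that from control was -0.52 (adjusted p = 0.0812), or -0.31 without CBP-deleted replicate 3. The call between the knockouts passed in 12 of 19 alternatives. It was lost without CBP-deleted replicate 2 (adjusted p = 0.0544), CBP-deleted replicate 3 (difference -0.43, adjusted p = 0.0768) or any p300-deleted array (adjusted p 0.0566 to 0.138). The call was also lost with the mean of both Kmt2a probe sets and with 18S as a covariate. Of the 20 measured genes in the Kmt2a group of other bromodomain and YEATS readers, 15 had lower means in CBP-deleted than in p300-deleted cells. Of all 12393 genes, 6704 did. The median log2 difference of the group was -0.14, beside -0.02 for all genes. Brwd3, in this group, was at or below background, and between the knockouts Kmt2a alone passed. Against control no gene of the group passed with the probe set used. With every probe set tested singly, probe sets of Baz2a and Bptf passed in CBP-deleted against control cells.

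Taf6l, a core subunit of SAGA, read 6.06, 6.00 and 6.09 in CBP-deleted, 5.51, 5.58 and 5.72 in p300-deleted and 6.16, 6.39 and 5.97 in control arrays. The p300-deleted arrays were the 3 lowest. Against control it fell in p300-deleted cells, by a log2 difference of -0.57 (SE 0.13, adjusted p = 0.0309) that passed in 9 of 19 alternatives. Leaving out control replicate 3 or p300-deleted replicate 3 kept the call, and leaving out any other array lost it (adjusted p 0.0507 to 0.125). With the probe set used for each gene, the other 13 measured SAGA and ATAC genes did not pass in any comparison. With every probe set tested singly, a probe set of Supt20 also passed in p300-deleted against control cells.

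Crtc3 is a CREB coactivator that cooperates with CBP and p300. It read 7.03, 7.33 and 6.90 in CBP-deleted, 7.16, 6.90 and 7.38 in p300-deleted and 7.66, 8.03 and 7.51 in control arrays. The controls lay above both knockouts, as they did in the Gapdh 3' to 5' difference, whose part was not tested. The log2 difference from control was -0.65 (SE 0.17, adjusted p = 0.0477) in CBP-deleted cells, past the threshold in 5 of 19 alternatives, and -0.59 (adjusted p = 0.0733) in p300-deleted cells. Without control replicate 3 both passed (adjusted p = 0.0212 and 0.0345), and leaving out any other array lost the CBP-deleted call (adjusted p 0.0511 to 0.19). Of the 7 measured cofactors that bind CBP and p300, the median log2 difference was -0.15 in CBP-deleted cells and -0.23 in p300-deleted cells. All genes had medians of -0.03 and -0.02. Among the cofactors, Cited1 and Cited4 were at or below background. Cited2, which competes for the CH1 domain of CBP and p300, differed by -0.30 (adjusted p = 0.0627) and -0.23 (adjusted p = 0.155). With the probe set used for each gene, none of the measured genes of the TIP60, NuRD and CoREST and NCoR groups (11, 8 and 8 genes) passed. With every probe set tested singly, a probe set of Rcor1, a CoREST gene, passed in both knockouts against control.

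**Figure D4:**
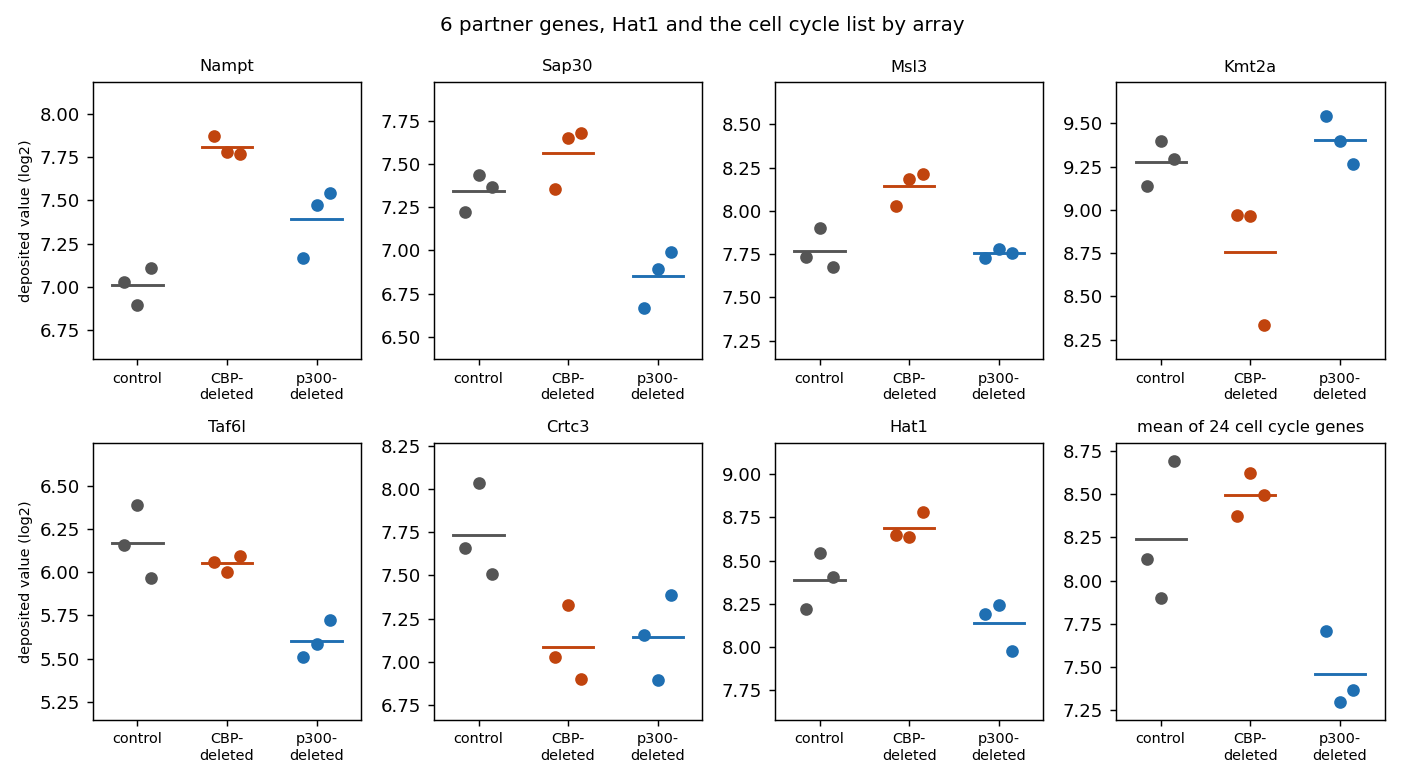
Deposited log2 values on each array (points) and group means (bars) of the 6 partner genes that passed in a comparison, of Hat1, and of the mean of 24 cell cycle genes, each panel on its own axis. Nampt is highest in the 3 CBP-deleted arrays (7.77 to 7.87). Sap30, Hat1 and the cell cycle mean are all lower in p300-deleted than in CBP-deleted arrays.

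Over the members, the RefSeq table held 30 promoters of 21 genes, with no entry for Kat6a, Ncoa2, Ncoa3, Hdac1, Hdac3 and Brd8. The cyclic AMP response element TGACGTCA was in 0 of 30 member promoters and in 1.55% of all 32851 promoters, searched on both strands over the same 250 bases. Its short form TGACG, which lies within the full element, was in 8 of 30 (26.7%) and in 17.8% of all, in Kat2a, Kat2b, Kat7, Hdac11, Sirt1, Sirt3, Sirt4 and Brd2. The E2F letters were in 2 of 30 (6.67%), those of Sirt4 and Brd7, and in 1.53% of all. The GC box GGGCGG was in 17 of 30 (56.7%) and in 32.7% of all, and CCAAT in 8 of 30 (26.7%) and in 33.8% of all. These are matches of letters, and some genes contributed several promoters.

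The choice of probe set bore on a few members. The 27 members had 40 probe sets, and 9 members had more than 1. Their probe sets differed in sign for 5 members in CBP-deleted against control cells (Brd3, Brd8, Hdac11, Kat2b and Ncoa1), for 3 in p300-deleted against control (Brd2, Brd3 and Kat7) and for Brd3 between the knockouts. Tested singly among 20380 probe sets, 0, 0 and 1 of the 40 passed in the 3 comparisons, the last being Hat1.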

How the data were processed

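Expression was measured on 9 Affymetrix 3' arrays, 3 a group. Per the labels' protocols, 100 ng of total RNA, isolated with RNeasy, was amplified and labelled with biotin. The authors deposited 1 log2 value per probe set and array, made with RMA per the submitters' processing notes. Its settings are not given in the sources used here. Values were used as deposited. Of 22690 probe sets, 64 were controls, 20380 had 1 gene symbol, 691 several and 1555 are not named here, and 29 had no RefSeq match. The probe set with the highest mean over all arrays stood for each of 12393 genes. Arrays have no depth, and their number limits the precision. Array medians were 5.49 to 5.59, and arrays of 1 group correlated at 0.990 to 0.997.

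Differences were tested with limma 3.58.1 in R 4.3.3 over all 9 arrays (1 mean a group, 6 residual degrees of freedom, eBayes with trend, two-sided) with Benjamini-Hochberg adjustment over 12393 genes, at 0.05. An exact two-sided permutation test of 3 arrays against 3 cannot go below p = 0.1 and was not used. The procedure was run on simulated data with equal spread in all groups, whereas the control arrays here had a larger spread. The outcome is not given here, so it does not show how often differences of the reported size are found.

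The members and lists were chosen with earlier results of these data known. Array values are given for Crebbp, each member past the threshold, the member of each class with the largest difference from control, and partners past the threshold. Values of other members and partners were chosen after they were seen. The alternatives were each array left out and 10 others: array medians subtracted, quantile normalization, no trend, only the 2 groups compared, dim genes left out, the mean of all probe sets, every probe set, no _x_at probe sets, 18S as a covariate and the replicate number as a block.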

Additional observations from a re-analysis of the deposited data

Results flagged for a closer look

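Between CBP-deleted and p300-deleted cells, 4 genes had effects that differed by the limma test of the difference itself. The log2 difference was 0.55 for Hat1, 0.39 for Msl3, 0.71 for Sap30 and -0.65 for Kmt2a. For 2 further partner genes of the 105 measured, every array of CBP-deleted cells lay below all controls and every array of p300-deleted cells above them. They were picked for this pattern, and its share among all genes was not counted. Arrays of 24.4% of all genes did not overlap, in either direction, between CBP-deleted and control. Between p300-deleted and control the share was 20.3%. Epc1, a TIP60 subunit, read 8.75, 8.77 and 8.80 in CBP-deleted, 9.04, 9.06 and 9.09 in p300-deleted and 9.02, 8.88 and 8.88 in control arrays. Its log2 difference between the knockouts was -0.29 (adjusted p = 0.0534). Bptf, the bromodomain subunit of the NURF remodelling complex, read 10.15, 10.17 and 9.91, then 10.43, 10.35 and 10.36, and 10.26, 10.24 and 10.25 in controls. Its log2 difference was -0.30 (adjusted p = 0.0568). These 2 differences did not pass the test. With every probe set tested singly, a Bptf probe set passed in CBP-deleted against control cells.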

How the results depend on the processing

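Across 19 alternatives (10 settings and 9 arrays left out in turn), Nampt in CBP-deleted against control kept its call in 19 (adjusted p 0.0025 to 0.0344), Sap30 between the knockouts in 18 (0.004 to 0.0505) and Hat1 between the knockouts in 16 (0.0034 to 0.0657). Members past the threshold in CBP-deleted against control were 0 in the 10 settings and 0 to 2 when an array was left out, 2 of them (Crebbp and Hdac5) without control replicate 3. In p300-deleted against control they were 0 throughout. Between the knockouts there was 1 member, with 2 under the 18S covariate (Crebbp and Hat1), 7 in a fit of only the 2 groups, and 0 to 3 when an array was left out (Hdac3 also passed without control replicate 2 or 3, and Ncoa3 without control replicate 2). Partner genes in CBP-deleted against control were 3, but 1 under the 18S covariate, no trend, only the 2 groups and the replicate block. They were 2 under array medians subtracted and quantile normalization, 4 in the other 4 settings, and 1 to 6 when an array was left out. Nampt was among them each time, but the others changed. With every probe set the others were Baz2a, Bptf and Rcor1, and with the mean of all probe sets Cited2, Msl3 and Rbbp4. In p300-deleted against control the partner genes past the threshold were 2, but 0 under the 18S covariate and only the 2 groups. They were 1 under array medians subtracted, the mean of all probe sets, no trend, quantile normalization and the replicate block. They were 3 with every probe set (Rcor1, Supt20 and Taf6l), and 0 to 8 when an array was left out. Between the knockouts they were 3, but 5 under the 18S covariate, 7 with dim genes left out, 17 in only the 2 groups, 2 under array medians subtracted, every probe set and the replicate block, 4 under the mean of all probe sets, no trend and quantile normalization, and 0 to 12 when an array was left out. Hdac11 in CBP-deleted against control ranged from -0.16 to 0.0316 when an array was left out, turning above 0 without control replicate 2. The causes were not tested. Same-numbered arrays did not deviate together (r from -0.23 to 0.27 over 9 pairs, 2 above 0.1), so the replicate numbers were not taken as pairs. With the replicate block, members past the threshold stayed at 0, 0 and 1 (Hat1). Genes called in all were 364, 326 and 524 with the block, beside 611, 503 and 645. With 3 arrays a group the median 95% interval of a member was 0.25 on the log2 scale to either side. Its width differs by gene and is not adjusted for the number of genes tested. A difference whose own interval holds 0 cannot be told from 0. Larger differences from control in CBP-deleted cells, -0.48 for Hdac5 and -0.64 for Brd2, did not pass after adjustment.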
